A study of Mus musculus with 8 samples.

Results

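Genes of the microRNA silencing machinery were examined among RNAs recovered with the decapping co-activator DCP1A from mouse ovary. The set held 10 genes out of the 23107 genes of the deposited table, chosen by name. These were the Argonaute genes Ago1 to Ago4, the GW182 genes Tnrc6a, Tnrc6b and Tnrc6c, the nuclease genes Dicer1 and Drosha, and the helicase gene Mov10. The 4 Argonaute rows were listed under their older names, Eif2c1 to Eif2c4. The tissue was the ovarian cortex of mice at postnatal day 8, with no strain, genotype or treatment given. RNA immunoprecipitation (RIP), in which an antibody pulls down a protein together with the RNA bound to it, gave 4 libraries, and 4 further libraries came from input RNA. The study set out to find DCP1A-bound RNAs of primary oocytes. A library held 13098154 to 25757620 counts. All 4 libraries of a group differed only by a number in the labels, and nothing says that they came from separate animals, so the p-values cover only the spread among libraries, part or all of which may be technical. A control antibody was not analysed here, and binding to antibody or beads alone has no measure. The counts came from whole cortex, so RNA bound in oocytes cannot be told apart from RNA bound in other cells.

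MicroRNAs are cut from long primary transcripts in the nucleus by Drosha and then trimmed in the cytoplasm by Dicer. The mature strand is loaded into an Argonaute protein, which it guides to partly complementary mRNAs. Argonaute recruits a GW182 protein (TNRC6 in mammals), and GW182 in turn brings in deadenylases and, through them, the decapping machinery to which DCP1A belongs. Argonaute and GW182 proteins gather in the same cytoplasmic processing bodies as DCP1A. In mouse oocytes Dicer and Ago2 are also needed for endogenous small interfering RNAs, while microRNA activity is known to be weak. The measurements below concern the mRNAs of these factors, not the proteins.

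None of the 10 silencing genes differed between RIP and input by edgeR's quasi-likelihood test. The members' lowest adjusted p (Benjamini-Hochberg over all 14667 genes tested) was 0.746, for Tnrc6b. All 10 members passed the filter on low counts. The call rate over all genes tested was 0.0409%, or 6 genes, all of them lower in RIP. A fit that took the replicate number as a block called 13 genes higher and 42 lower (0.375%), and again 0 of the 10 members. At an unadjusted p under 0.05 the members numbered 0, against 7.43% of all genes tested (3.15% higher and 4.28% lower), and DESeq2 and limma voom likewise called 0 of the 10. The log2 fold change was negative for 5 members and positive for the other 5, with 51.7% of all genes tested being negative. The members' median was -0.05, beside -0.02 over all genes tested. Input and RIP libraries overlapped for all 10 members, while for 2.77% of genes tested every RIP library lay above every input library and for 2.52% below. The share of counts taken by the members was 0.143 ± 0.044% (input) against 0.132 ± 0.036% for RIP (SD, n = 4 each). Levels below are CPM, counts scaled to each library's TMM-adjusted total, and fold changes are log2 values of RIP over input with their standard error (SE). Counts per gene also depend on transcript length, which was not used here, so levels are compared between libraries and not between genes.

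The Argonaute genes encode the proteins that hold the guide strand, and only Ago2 among them slices a fully paired target. Ago1, Ago3 and Ago4 lie next to each other on mm10 chromosome 4, with 3341 bp between Ago3 and Ago1 and 20779 bp between Ago1 and Ago4, and the cluster spans 206.6 kb. Ago1 (chromosome 4, 126435012 to 126468707) was at 188, 248, 159.6 and 241 CPM in input libraries 1 to 4 and at 264, 242, 208 and 234 CPM in RIP libraries 1 to 4. The RIP libraries lay within or just above the input range. Its mean was 209 ± 43 CPM over inputs and 237 ± 23 CPM over RIP libraries (SD, n = 4 each), a log2 fold change of 0.18 ± 0.23 (SE, edgeR adjusted p = 0.875) with a 95% interval of -0.30 to 0.66. Without input 3 the fold change was 0.08, and without input 2 it was 0.27. Ago2 (chromosome 15, 73101625 to 73184947) was at 166, 134, 90.7 and 166 CPM in input and at 131, 161, 134 and 164 CPM in RIP. Input 3 was the lowest of the 8 libraries, and the other 7 lay close together. The log2 fold change was 0.08 ± 0.25 (95% interval -0.44 to 0.61), and it was -0.07 without input 3. A lncRNA gene, Gm31725, is annotated inside the span of Ago2, and whether the counting used strand is not given in the sources used here.

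Ago3 (chromosome 4, 126326994 to 126431670) had 37.2, 52.1, 57.7 and 49.5 CPM in input and 29.0, 54.6, 48.8 and 65.2 CPM in RIP. Number 1 was the lowest library in both groups, and the means of 49.1 ± 8.6 and 49.4 ± 15.2 CPM (SD) were nearly equal (log2 0.01 ± 0.29, 95% interval -0.61 to 0.63). Ago4 (chromosome 4, 126489487 to 126533586) had 11.8, 1.36, 15.7 and 13.7 CPM in input and 18.7, 15.04, 15.3 and 18.7 CPM in RIP. Input 2 stood far below the other 7 libraries and held only 16 counts of Ago4, where the others held 141 to 462. Ago4 had the most positive fold change of the members and the widest interval, 0.66 ± 0.54 (-0.49 to 1.82, edgeR adjusted p = 0.801), and the value was 0.30 without input 2. Summed over the 4 genes, Argonaute transcripts reached 408 ± 63 CPM (input) and 451 ± 34 CPM (RIP libraries). The make-up of that sum was also alike in the groups. Ago1 supplied 51.0 ± 4.4% of Argonaute counts in input and 52.6 ± 4.8% in RIP, and Ago2 supplied 33.8 ± 5.8% and 32.7 ± 2.1%.

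**Figure D1:**
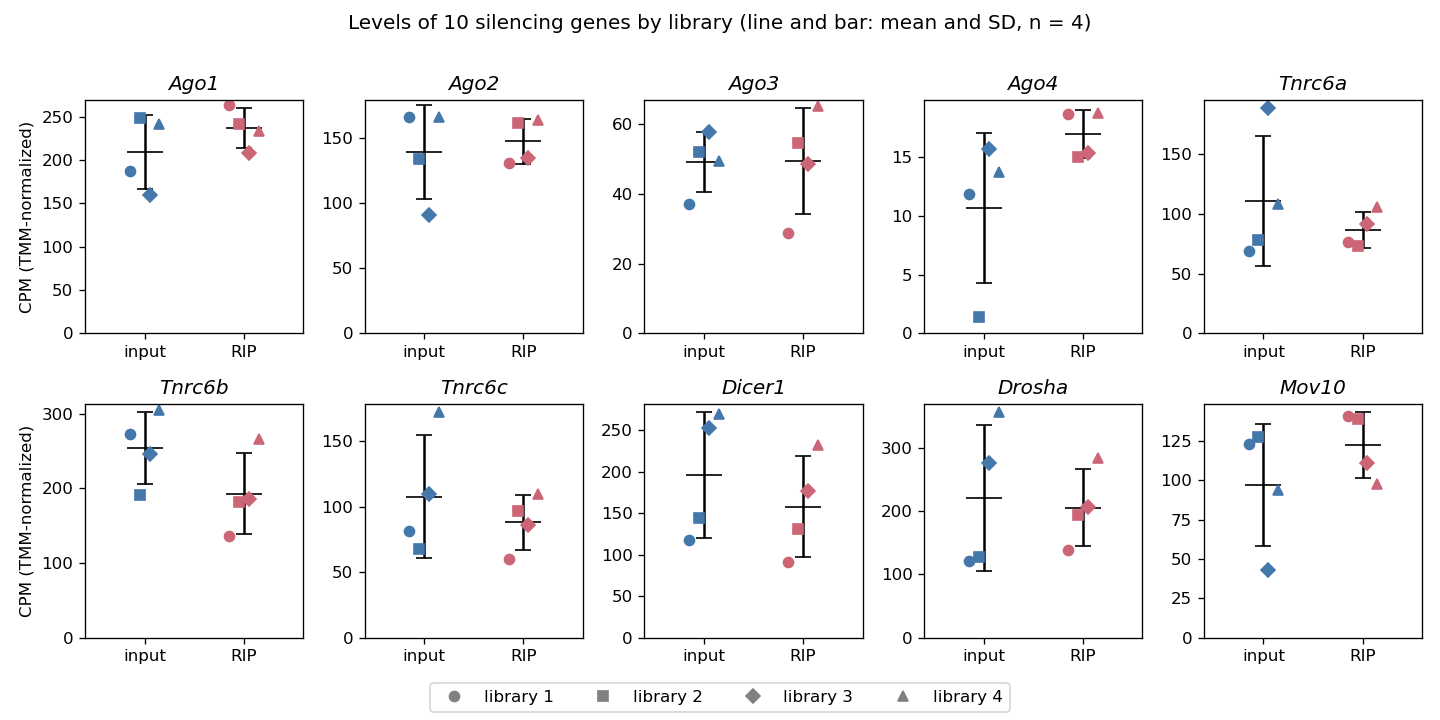
CPM (vertical axis, linear from 0) of each of the 10 genes in the 4 input (blue) and 4 RIP (red) libraries, with the library number as the symbol and the mean and SD as a black line and bar. The groups overlap in every panel, Ago4 is near 0 in input 2 alone, and Dicer1 and Drosha are highest in library 4 of both groups.

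The TNRC6 genes encode the GW182 proteins, whose glycine-tryptophan repeats bind Argonaute and whose silencing domain binds the deadenylase complexes. All 3 had a negative fold change, and none passed the test. Tnrc6b (chromosome 15, 80711313 to 80941086) was at 273, 191, 247 and 305 CPM in input and at 136, 182, 186 and 267 CPM in RIP. RIP 1 was the lowest of the 8 libraries and input 4 the highest, and RIP 4 lay within the input range. The means of 254 ± 48 and 193 ± 54 CPM (SD, n = 4 each) gave a log2 fold change of -0.40 ± 0.25 (edgeR adjusted p = 0.746, 95% interval -0.94 to 0.14), the lowest among the members, and -0.26 without RIP 1. The microRNA gene Mir5113 is annotated within Tnrc6b.

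Tnrc6a (chromosome 7, 123031101 to 123195296), which codes for the original GW182 autoantigen, was at 68.9, 77.9, 188 and 108 CPM in input and at 76.5, 73.0, 91.2 and 106 CPM in RIP. Input 3 alone lay above 110 CPM. With it the log2 fold change was -0.36 ± 0.31 (95% interval -1.01 to 0.30), and without it 0.04. Tnrc6c (chromosome 11, 117653703 to 117763439) was at 81.0, 67.3, 109 and 173 CPM in input and at 59.9, 96.5, 85.6 and 109.5 CPM in RIP. Its highest library was input 4. The log2 fold change was -0.29 ± 0.31 (95% interval -0.94 to 0.36), and it was 0.04 without input 4. Summed over the 3 genes, TNRC6 transcripts stood at 472 ± 114 CPM over inputs and 367 ± 87 CPM over RIP libraries. Tnrc6b held 54.7 ± 8.1% of TNRC6 counts in input and 52.1 ± 2.3% in RIP. Tnrc6a held 23.1 ± 8.2% and 24.0 ± 3.3%, and Tnrc6c 22.2 ± 4.9% and 23.9 ± 2.4%. The mean shares of the 3 paralogs were thus similar in the groups, but shares varied among inputs. Tnrc6b ran from 45.3 to 64.5% there and Tnrc6a from 16.3 to 34.6%.

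Dicer1 and Drosha encode the ribonucleases of microRNA maturation. Dicer1 (chromosome 12, 104687740 to 104751968) was at 118, 144, 253 and 269 CPM in input and at 90.6, 131, 176 and 232 CPM in RIP. Libraries 3 and 4 were above libraries 1 and 2 in both groups. The means were 196 ± 76 and 158 ± 61 CPM (SD, n = 4 each), with a log2 fold change of -0.32 ± 0.33 (edgeR adjusted p = 0.845, 95% interval -1.01 to 0.38). The value was -0.12 without input 4 or without RIP 1, -0.16 without input 3 and -0.56 without RIP 4. Mouse oocytes use a shortened Dicer isoform started inside the gene, and counts per gene do not separate it from the full-length transcript. Drosha (chromosome 15, 12824804 to 12935291) was at 121, 127, 276 and 356 CPM in input and at 138, 194, 206 and 284 CPM in RIP. The RIP libraries lay inside the input range. The log2 fold change was -0.10 ± 0.34 (95% interval -0.83 to 0.63). For each count of Drosha there were 0.977, 1.13, 0.916 and 0.755 counts of Dicer1 in input libraries 1 to 4 and 0.659, 0.678, 0.857 and 0.816 in RIP libraries 1 to 4, and these ranges overlapped as well.

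Mov10 encodes an RNA helicase that associates with Argonaute complexes. Mov10 (chromosome 3, 104794828 to 104818619) was at 123, 127, 43.1 and 94.1 CPM in input and at 141, 139, 111 and 97.9 CPM in RIP. Input 3 was lowest by a wide margin, and the RIP libraries lay between 97.9 and 141 CPM. The means were 96.9 ± 38.7 and 122 ± 21 CPM (SD, n = 4 each), with a log2 fold change of 0.34 ± 0.31 (edgeR adjusted p = 0.826, 95% interval -0.32 to 0.99). Without input 3 the value was 0.10.

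**Figure D2:**
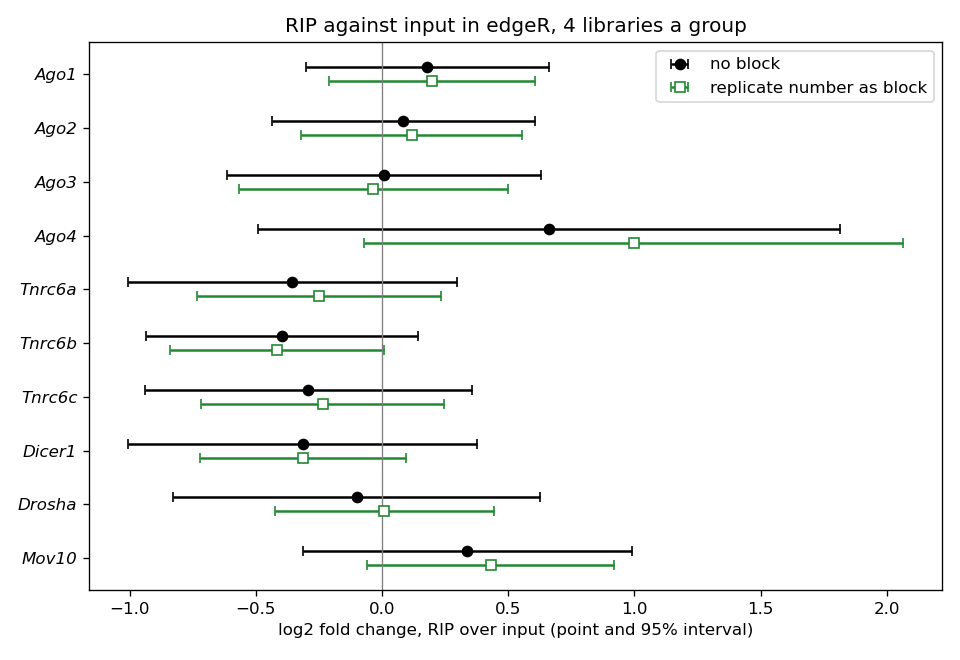
Log2 fold change of RIP over input (horizontal axis) for each of the 10 genes, as edgeR estimates with 95% intervals, without a block (black circles) and with a block for the replicate number (open green squares). Every interval includes 0 in both fits, and that of Ago4 is the widest.

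Libraries of one number deviated together from their group means, as did some of unlike number, and RIP and input were also set side by side within each number. Tnrc6b was lower in RIP within each of the 4 numbers, by log2 values of -0.998, -0.07, -0.41 and -0.19. Dicer1 was likewise lower in each of the 4, at -0.38, -0.13, -0.52 and -0.21. Mov10 was higher in RIP in each of the 4, at 0.20, 0.12, 1.35 and 0.06, most of it in number 3. Among all genes tested, 9.9% were lower in all 4 numbers and 10.8% higher, so 2 and 1 of 10 members are near these shares. The remaining 7 members had both signs among the numbers. Ago4 ranged from -0.04 to 2.77, with the top value in number 2, where input held 16 counts. Drosha was higher in RIP in numbers 1 and 2 (0.19 and 0.60) and lower in numbers 3 and 4 (-0.42 and -0.32). In an edgeR fit with a term for the difference between those library pairs, that difference was -0.79 ± 0.39 for Drosha (SE, adjusted p = 0.999), and 0 of 14667 genes passed. With the number as a block, Tnrc6b had a log2 fold change of -0.42 ± 0.21 (edgeR adjusted p = 0.401, 95% interval -0.84 to 0.01), Dicer1 -0.31 ± 0.20 (0.535), Mov10 0.43 ± 0.24 (0.463) and Ago4 1.00 ± 0.52 (0.425). In that blocked fit 6.16% of all genes were lower and 6.64% higher at an unadjusted p under 0.05, and 0 of the 10 members were in either class.

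**Figure D3:**
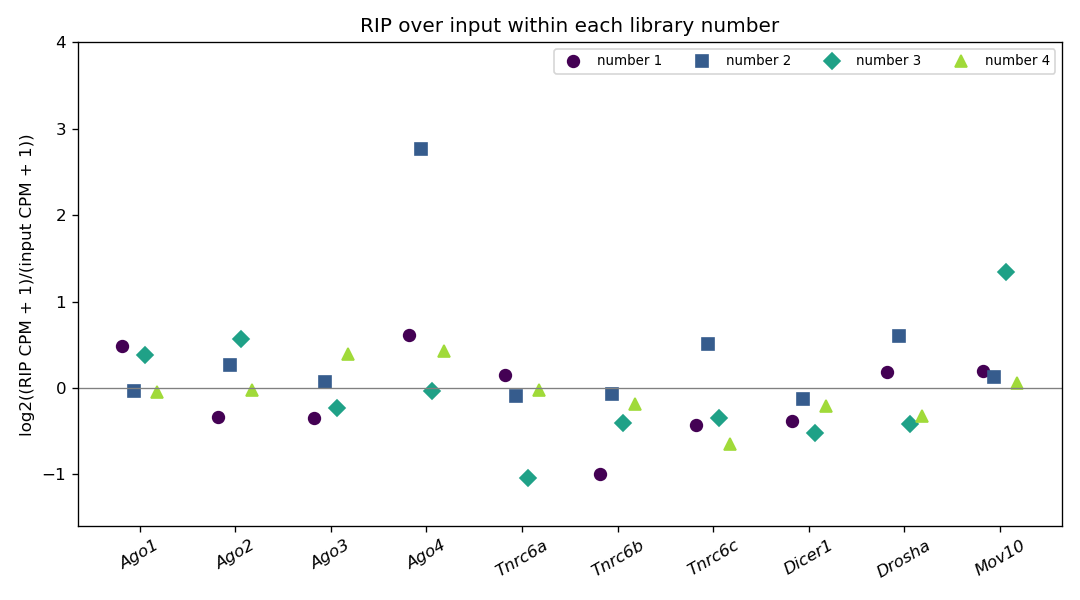
Log2 of RIP over input, each as CPM + 1 (vertical axis), within library numbers 1 to 4 (symbols) for the 10 genes. Tnrc6b and Dicer1 lie below 0 in all 4 numbers, Mov10 lies above 0 in all 4, and the highest point, 2.77, is Ago4 in number 2.

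Dicer1, Drosha, Tnrc6a, Tnrc6c, Ago3 and Mov10 differed more between numbers 1 and 2 and numbers 3 and 4, in both groups, than between RIP and input. That grouping of the numbers was known from an earlier analysis of these data and carries no test here. Depth and composition differed along it in input. Inputs 1 to 4 held 13098154, 13142790, 25757620 and 25030604 counts, and RIP 1 to 4 held 16325384, 21269892, 20199164 and 18658435. The 10 largest genes took 30.5, 30.9, 12.4 and 16.4% of counts in inputs 1 to 4 and 31.5, 24.9, 22.7 and 15.2% in RIP 1 to 4. On the scale of log2(CPM + 1), Drosha was 1.33 higher in inputs 3 and 4 than in inputs 1 and 2, and 0.56 higher in RIP 3 and 4 than in RIP 1 and 2. Dicer1 was higher by 0.99 in input and 0.88 in RIP, Tnrc6a by 0.95 and 0.39, and Tnrc6c by 0.89 and 0.34. Ago3 was higher by 0.27 and 0.49 and Tnrc6b by 0.26 and 0.50, while Ago2 was at -0.28 in input and 0.03 in RIP. Mov10 went the other way, at -0.96 in input and -0.42 in RIP, and so did Ago1, at -0.14 and -0.19. Ago4 had 1.51 in input, where input 2 held 16 counts, and 0.01 in RIP. Over all genes this difference ran with annotated gene span, and the members followed it only in part. The members span 23.8 kb (Mov10) to 229.8 kb (Tnrc6b), and 7 of the 10 belong to the longest of 4 equal span classes of the genes tested, which starts at 57.5 kb. In that class the median gene was 0.42 higher in inputs 3 and 4 than in inputs 1 and 2, against -0.27 in the shortest class. In RIP the medians were 0.26 and -0.21. Of the 7 members in the longest class, Drosha, Dicer1, Tnrc6a and Tnrc6c lay above the class median in both groups. Ago3 and Tnrc6b, the longest member, lay below it in input and above it in RIP, and Ago2 lay below it in both. Ago4, with the highest value in input, and Mov10, with the lowest, both belong to the third class. The median log2 fold change of RIP over input was -0.09 in the longest class and 0.06 in the shortest. The part of depth, of the 10 largest genes or of span in the members' values was not tested.

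Some cell type markers also differed between the same library numbers. The 9 granulosa markers summed to 1892, 2448, 996 and 1085 CPM in inputs 1 to 4 and to 2122, 1883, 1269 and 1368 CPM in RIP 1 to 4. The 9 stroma and theca markers summed to 4489.8, 4594, 3147 and 3048 CPM in input and to 5402, 3987, 3074 and 3369 CPM in RIP. Both sums were lower in libraries 3 and 4 of either group. Most of the stroma sum came from the collagen genes Col1a1 and Col1a2, and single markers differed. Pdgfra, for one, was at 137 and 80.8 CPM in inputs 1 and 2 and at 211 and 149.6 CPM in inputs 3 and 4. The sum of the 12 oocyte markers, all 12 of them detected, did not split this way, at 1544 to 2237 CPM over inputs and 1653 to 2034 CPM over RIP libraries. Its members went both ways in input. Zp3, a zona pellucida gene, was at 345 and 601 CPM in inputs 1 and 2 and at 186 and 176 CPM in inputs 3 and 4, whereas Ddx4, which codes for a helicase of germ cells, had 36.5 and 17.0 CPM in the former and 74.1 and 58.8 CPM in the latter. Surface epithelium markers summed to 104 to 143 CPM over inputs and 111 to 239.5 CPM over RIP libraries, and endothelium markers to 61.1 to 113 CPM over all 8. Of the 8 stroma and theca markers tested, 4 had a positive and 4 a negative log2 fold change, with a median of 0.006. By edgeR, 2 of the negative ones were lower in RIP at an unadjusted p under 0.05. These were Dcn (log2 -0.81 ± 0.29) and Nr2f2 (log2 -0.69 ± 0.27), each with an edgeR adjusted p of 0.622. The keratin gene Krt8 of the epithelium list was higher, with an edgeR unadjusted p of 0.0272 (edgeR adjusted p = 0.625, log2 0.67 ± 0.27). Over all genes tested, 3.15% were higher and 4.28% lower at that unadjusted threshold. Leukocyte markers were low, and their sums did not overlap, at 9.61 to 16.3 CPM over inputs and 17.2 to 30.1 CPM over RIP libraries. Among single genes tested, 2.77% had every RIP library above every input library. Most of the leukocyte sum was the macrophage receptor gene Csf1r, with a log2 fold change of 0.84 ± 0.38 (edgeR unadjusted p = 0.0434, adjusted p = 0.656). Its own groups overlapped, with input 1 at 15.2 CPM and RIP 2 at 14.2 CPM. Cd68 averaged 0.74 CPM over inputs and 2.57 CPM over RIP libraries, and Ptprc 0.59 and 0.48 CPM. Of the 3 erythrocyte markers in the table, the globin genes Hba-a1 and Hba-a2 were at or near 0 and the heme synthesis gene Alas2 was at 19.3 to 55.4 CPM. Their part in the members' values was not tested.

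Some non-member genes had profiles over the 8 libraries closest to the Argonaute mean. Likeness was the mean absolute difference in centred log2(CPM + 1), over 1362 genes with at least 126.5 CPM. Arid1b, a subunit gene of the BAF remodelling complex, differed by 0.058, the ubiquitin ligase gene Mib1 by 0.081 and the splicing factor gene Sf3a1 by 0.090, beside a median of 0.359 over the candidates. For the TNRC6 mean the kinase gene Wnk1 was at 0.053 and Ccdc6 at 0.072, beside a median of 0.433. These 5 genes were chosen on the same 8 libraries, so their fold changes follow from the choice. None passed edgeR's test, with Arid1b at a log2 fold change of 0.29 ± 0.21 and Wnk1 at -0.25 ± 0.26. The libraries share their depth and composition, so these values describe the profiles only.

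The other genes of the pathway were read from lists chosen with earlier results of these data known. Of the 18 microRNA biogenesis genes tested, 0 passed edgeR's test, and the median log2 fold change was 0.15. Dgcr8, the RNA-binding partner of Drosha, averaged 54.1 ± 21.0 CPM over inputs and 52.8 ± 7.6 CPM over RIP libraries (log2 -0.03 ± 0.31). The export receptor gene Xpo5 was at 57.5 ± 15.9 and 77.8 ± 8.9 CPM (0.44 ± 0.26), and the Dicer partner gene Tarbp2 at 31.7 ± 10.8 and 41.9 ± 10.2 CPM (0.40 ± 0.32). These 3 were named for their role after their values had been seen. Papd4, coding for the poly(A) polymerase GLD2 that adds nucleotides to some microRNAs, had the lowest p of the list. It was at 43.2, 48.4, 70.0 and 54.1 CPM in input and at 7.61, 20.7, 35.3 and 43.0 CPM in RIP. RIP 4 nearly reached input 1, and the log2 fold change was -1.02 ± 0.42 (edgeR adjusted p = 0.625). Trim71, a let-7 target and RNA-binding ubiquitin ligase gene, stood at 0.59 ± 0.29, and the Drosha-associated helicase genes Ddx5 and Ddx17 at -0.32 ± 0.26 and 0.19 ± 0.22.

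Genes for Argonaute partners and chaperones gave a similar picture. Of 25 tested, 0 passed, with a median of -0.01. Their log2 fold changes were positive for 12 and negative for 13, from -0.84 to 0.49. An unadjusted p under 0.05 was found for 2 of them, both lower. Over all genes tested that share was 7.43%, with 4.28% lower. These were the HSP90 chaperone gene Hsp90aa1 (log2 -0.74 ± 0.34, edgeR adjusted p = 0.663) and Fxr1, a relative of the fragile X RNA-binding protein gene (-0.84 ± 0.39, adjusted p = 0.670). Input 3 held the highest level of both, 938 CPM for Hsp90aa1 and 244 CPM for Fxr1. Without input 3 the fold changes were -0.25 and -0.39. The abundant chaperone genes Hsp90ab1 and Hspa8 had -0.25 ± 0.34 and -0.03 ± 0.23. Among 23 genes for the deadenylation and decapping factors that GW182 recruits, 0 passed, with a median of -0.15. The sign was negative for 15 and positive for 8, beside 51.7% negative over all genes tested. At an edgeR unadjusted p under 0.05, 1 of the 23 was lower, beside 4.28% of all genes tested. The poly(A)-binding protein gene Pabpc1 had the lowest p there, with 338, 465, 929 and 515 CPM in input and 227, 329, 244 and 373 CPM in RIP. Its fold change was log2 -0.94 ± 0.30 (unadjusted p = 0.0070, edgeR adjusted p = 0.617), and -0.57 without input 3. Cnot2 and Cnot1, subunit genes of the CCR4-NOT deadenylase, had -0.61 ± 0.29 and -0.15 ± 0.28. Of the germline relatives, the PIWI gene Piwil2 was at 0.13 ± 0.29, Piwil1 at -1.15 ± 1.08 with a mean of at most 4.08 CPM and a value of -0.26 without input 2, and the Mov10 paralog Mov10l1 at -0.64 ± 0.35, while Piwil4 did not pass the filter on low counts.

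**Figure D4:**
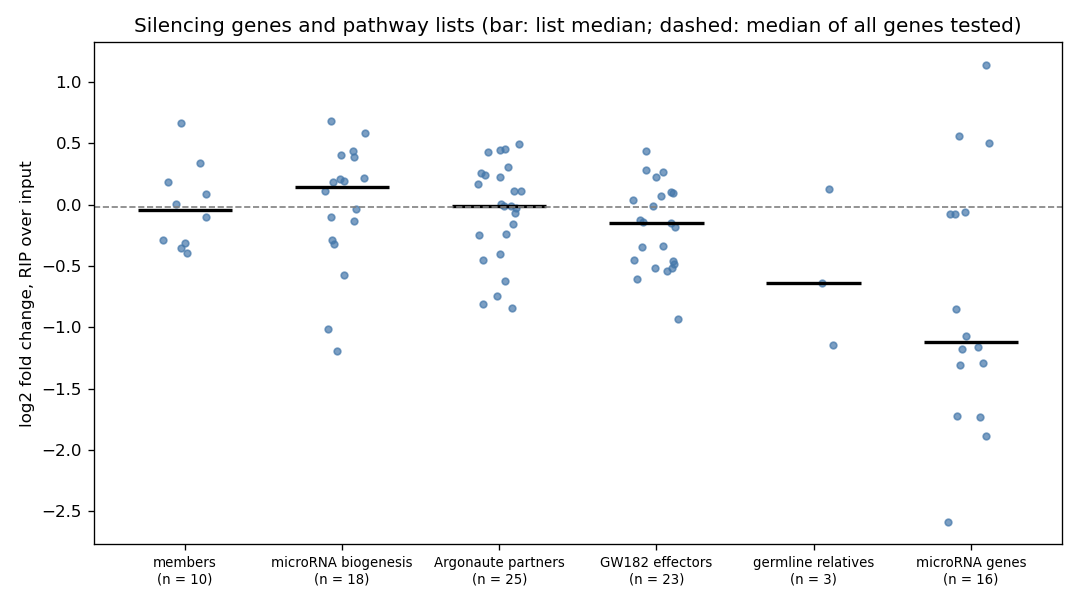
Log2 fold change of RIP over input (vertical axis) for each gene tested in the 10 members and in 5 lists of related genes (points, spread sideways at random), with each list's median as a bar and the median of all genes tested, -0.02, as a dashed line. The members lie between -0.40 and 0.66, and the microRNA gene rows have the widest range.

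MicroRNA genes themselves, the substrates of Drosha and Dicer, were mostly at or near 0. The table listed 646 such rows, of which 150 had any count and 16 passed the filter, and 0 of the 16 passed edgeR's test. The log2 fold change was negative for 13 of the 16, with a median of -1.12, beside 51.7% negative and a median of -0.02 over all genes tested. Among rows that did not pass the filter, many had counts in RIP alone. Some of these, such as Mir762 and Mir3101, had them in several libraries, and others, such as Mir22 and Mir411, in RIP 3 only. Fewer had counts in input alone, such as Mir5117. Over the whole table, genes with counts numbered 15006 ± 783 in input and 16054 ± 814 in RIP (SD, n = 4 each). The sum over all microRNA gene rows overlapped between groups, at 50.4 to 157.7 CPM over inputs and 51.6 to 68.3 CPM over RIP libraries. At an unadjusted p under 0.05 the list held 3 rows, all lower, namely Mir690, Mir1940 and Mir682, against 4.28% of all genes tested. Such rows have few counts, and the 16 are only those that passed the filter. A low row could pass it mainly through the group where it was higher, so the sign count among the 16 carries no test. Mature sequences matched in RefSeq for 2 of these 3 rows and are shown as annotated, with the seed (bases 2 to 8) in capitals, on GRCm38.p6. Whether an Argonaute carries either of them was not tested.
mmu-miR-690: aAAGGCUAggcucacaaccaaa
mmu-miR-682: cUGCAGUCacagugaagucug
Their seeds differ. Mir690 (chromosome 16, 28599935 to 28600043, minus strand) is a hairpin of 109 bases inside the gene Fgf12 and was at 30.3, 28.9, 1.67 and 16.4 CPM in input and 5.69, 3.71, 2.86 and 0.618 CPM in RIP. Input 3 lay within the RIP range. The log2 fold change was -2.58 ± 0.76 (edgeR adjusted p = 0.572, unadjusted p = 0.00394). Mir682 (chromosome 13, 75645046 to 75645141, plus strand) is a hairpin of 96 bases inside the pseudogene Gm4149 and had a log2 fold change of -1.07 ± 0.49 (adjusted p = 0.656). Mir1940 was at -1.72 ± 0.62 (adjusted p = 0.622), with 47.6 and 30.6 CPM in inputs 1 and 2 and 3.33 to 12.4 CPM in the other 6 libraries. Counts in such rows cannot separate a hairpin from a host or overlapping transcript, and whether the library kit retained RNA as short as a mature microRNA is not given in the sources used here.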

How the data were processed

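Per the labels' protocols, DCP1A-bound RNA was isolated with a Magna RIP kit and sequenced after SMARTer Stranded Total RNA-Seq Pico preparation. The table deposited by the authors holds estimated counts per gene for 8 libraries, and up to 1.85% of values per library were not whole (tolerance 1e-09). The genome build was mm10, per the submitters' processing notes. The sources used here give no aligner, counter, annotation or use of strand. Values were rounded to whole numbers and fitted over the whole table with edgeR 4.0.16 in R 4.3.3 (TMM, filterByExpr with minimum count 10 and total 15, robust quasi-likelihood test, Benjamini-Hochberg adjustment, threshold 0.05). The fit was also run on simulated data, with changes planted only in genes at or above the median level. Recovery of changes as small as the members' estimates was not examined. The SE is the size of the log2 fold change over the square root of F. The common biological coefficient of variation was 0.559. Coordinates and spans are from RefSeq GRCm38.p6, the patch release of mm10, 1-based.

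Same-numbered libraries deviated together from their group means, with correlations over genes of 0.249, 0.129, 0.230 and 0.155 for numbers 1 to 4, each over 0.1. Some unlike numbers correlated as much, at 0.395 for input 3 with RIP 4, 0.224 for input 2 with RIP 1 and 0.155 for input 4 with RIP 3, and between numbers 1 and 2 and numbers 3 and 4 all 8 correlations were negative. The reported fit took no account of the numbers. An alternative fit with the number as a block treated them as pairs, although the labels do not say what a number marks. The values also follow numbers 1 and 2 against 3 and 4. The blocked fit is given where it changed a count. Members and lists were chosen with earlier results of these data known. Named genes were the members and, per list, any gene past the threshold, the 2 with the lowest p and the 2 with the highest level. For microRNA gene rows this gave 3 names. The 3 genes most like each family were also named, of which 1 is not reported here. The alternatives were RLE, upper-quartile and library-size scaling, leaving out the 10 largest genes, DESeq2 1.42.0, limma 3.58.1 voom with sample weights, other filters (none, or 1 CPM in every library), blocks, subsets of libraries, each library left out, and a threshold of 0.1.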

Additional observations from a re-analysis of the deposited data

Results flagged for a closer look

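No silencing gene had a library that stood apart by Dixon's test, which was run on the CPM of 27 named genes in 2 groups of 4 libraries each. Over the 54 groups it marked 3, where chance marks about 1 in 20. Fxr1 was at 244 CPM in input 3, with the other inputs at 90.6 to 109 CPM. Piwil2 was at 126 CPM in input 4, with the other inputs at 55.0 to 64.0 CPM. Piwil1 was at 9.76 CPM in input 2, with the other inputs at 1.79 to 2.93 CPM.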

How the results depend on the processing

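None of the 10 members passed in any of the 20 alternative fits, and their median log2 fold change lay between -0.22 (without RIP 4) and 0.11 (without input 4). The lowest adjusted p of any member in these fits was that of Tnrc6b with the number groups as a block. At an unadjusted p under 0.05, 1 member was lower in that edgeR fit (Tnrc6b, unadjusted p = 0.0486, adjusted p = 0.358), beside 7.25% of all genes, and 1 was lower without RIP 4, beside 4.94%. Over all genes, the counts called higher and lower were 0 and 6 in the reported fit, 13 and 43 by DESeq2, 13 and 42 in the fit with a replicate block, 12 and 43 with numbers 1 and 2 against 3 and 4 as a block, and 3 and 24 within libraries 1 and 2. By limma voom 20 genes were lower. Without 1 library the counts ranged from 0 to 1 higher and from 4 to 16 lower, with 15 lower without input 3 and 16 without RIP 1. The replicate block changed no other call.

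None of the values that changed sign passed the test before or after the change, and the cause was not tested. With upper-quartile scaling Hspa8 was at 0.011 and Dgcr8 at 0.0012, and by limma voom Drosha was at 0.0094, Hspa8 at 0.0035 and Dgcr8 at 0.11. With the replicate block Ago3 was at -0.034, Drosha at 0.0084 and Dgcr8 at 0.057, while blocking on the number groups put Ago3 at -0.0029 and Drosha at 0.023. Within libraries 1 and 2 the values were -0.039 for Ago2, -0.096 for Ago3, 0.0218 for Tnrc6a, 0.078 for Tnrc6c, 0.42 for Drosha, 0.41 for Hsp90ab1 and 0.17 for Hspa8. Within libraries 3 and 4 they were 0.46 for Piwil1, -0.066 for Piwil2 and 0.031 for Dgcr8. Leaving out 1 library at a time gave ranges of -0.067 to 0.19 for Ago2, -0.15 to 0.19 for Ago3, -0.53 to 0.038 for Tnrc6a, -0.46 to 0.036 for Tnrc6c and -0.30 to 0.24 for Drosha. The ranges were -0.46 to 0.080 for Hsp90ab1, -0.12 to 0.090 for Hspa8, -0.31 to 0.026 for Cnot1 and -0.27 to 0.16 for Dgcr8. Ranges that kept their sign but moved by over 1.5 times included -0.56 to -0.12 for Dicer1, 0.077 to 0.27 for Ago1, -0.93 to -0.25 for Hsp90aa1, -1.11 to -0.39 for Fxr1, -2.39 to -0.26 for Piwil1, 0.0024 to 0.49 for Piwil2, -0.43 to -0.12 for Ddx5, 0.23 to 0.62 for Tarbp2 and 0.34 to 0.80 for Trim71. The other 660 of 698 values kept their sign and side of the threshold. With 4 libraries a group, the 95% interval of every member still includes a difference of about 0.61 log2 units in at least 1 direction.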
